A study of Mus musculus with 6 samples.

Results

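The genes described here encode the proteins of the mitochondrial ribosome, and they were followed in mouse bone marrow before and after a sort for green fluorescent protein (GFP). Members were all genes whose platform symbol begins with Mrpl or Mrps and a digit and that a probe set with a single gene symbol reads. There were 76 of them among 18193 genes, 47 named for the large subunit (Mrpl) and 29 for the small subunit (Mrps). The mice were hemizygous adults, male and female, aged 3 to 6 months, of the line Tg(Ren1-GFP)2Kwg, whose transgene drives GFP from renin sequences. Femur marrow of 4 to 5 of them made up 1 pool, and there were 3 pools, each with its own sorting day. Unsorted marrow of each pool gave a presort array (n = 3) and its GFP-positive cells gave a sorted array (n = 3), so the transgene was present in both groups. Presort and sorted arrays with 1 replicate number are taken here as 1 pool, numbered alike. The gates removed erythrocytes and debris by scatter and kept single cells, and the GFP limit let in 0.1% of cells of animals without the transgene, whereas presort marrow passed no gate. Renin itself has no probe set with a single symbol and was not read here as a check of the sort. The comparison sets cells with GFP against the whole marrow they came from, and each array reads a mixture in which fewer cells of a type and less RNA per cell cannot be told apart.

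The mitochondrial ribosome translates the few proteins that mitochondrial DNA encodes, all of them membrane subunits of the respiratory chain and of ATP synthase. Its ribosomal RNAs come from mitochondrial DNA, while its proteins are encoded in the nucleus, made in the cytosol and imported. The small subunit decodes the messenger RNA and the large subunit joins the amino acids. Part of the proteins have counterparts in bacterial ribosomes and the others are found in mitochondria and not in bacteria. Cells that grow and divide make much of this machinery.

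The arrays differed in more than the sort. Of the marker lists, all 11 measured B cell genes were higher in the sorted samples, with summed intensities of 13099 to 27213 in presort and 88611 to 98741 in sorted samples. All 13 erythroid, 14 neutrophil, 12 monocyte and macrophage and 15 cell division genes were lower. Their summed intensities in presort and sorted samples were 89981 to 92500 and 23238 to 40924 for erythroid genes, 221218 to 233945 and 59107 to 111019 for neutrophil genes, 18280 to 24869 and 1665 to 3937 for monocyte and macrophage genes, and 64994 to 65476 and 10319 to 16538 for cell division genes. Of the T and NK cell list 4 of 10 were lower (4194 to 4506 and 840 to 1708). The leading genes by rule were Ebf1 (3.06) and Cd72 (2.69) for B cells, Car1 (-3.65) and Icam4 (-3.40) for erythroid cells, Pglyrp1 (-3.57) and Mmp9 (-3.49) for neutrophils, Itgam (-3.97) and Ccr2 (-3.48) for monocytes and macrophages, Nkg7 (-2.99) and Klrc1 (-1.44) for T and NK cells, and Kif20a (-3.18) and Birc5 (-3.12) for division, as sorted minus presort differences (log2). No marker is at 0 on these arrays, whose lowest intensity is 9.71. The 3' minus 5' difference of the beta-actin control probe sets, which grows as RNA is degraded, was 0.96 ± 0.15 (SD, log2, n = 3) in presort and 2.05 ± 0.98 in sorted samples, and 3.17 in sorted replicate 1 (two-sided exact permutation p = 0.1, the smallest that 3 against 3 allow).

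Mitochondrial ribosomal protein genes were mostly lower in the GFP-sorted samples, by small amounts, with 59 of 76 differences below 0 and 17 above. Of the 76 members 18 fell and 3 rose (limma, Benjamini-Hochberg adjusted p under 0.05 over all genes), and 55 did not pass. The adjusted calls took in 27.6% of the members, below the 32.6% called over all 18193 genes. In single directions 23.7% of members fell against 18.1% of all genes and 3.95% rose against 14.5%. At an unadjusted p under 0.05 there were 26 of the 76 members and 7283 of the 18193 genes. The median difference of the members was -0.25 on the log2 scale, a presort level 1.19-fold the sorted level, beside a median over all genes within 0.01 of 0. The quartiles of the members were -0.46 and -0.04. The median shrank to -0.03 when arrays were centred on their medians over genes, a step that moved all differences by about 0.23, with 13 members lower and 12 higher. In that fit 17.1% of members and 14.2% of all genes were lower, and 5162 of the 18193 genes were higher. With quantile normalization over the named genes the median was -0.10, with 13 members lower and 6 higher. There 17.1% of members and 16.2% of all genes were lower, and 3501 of the 18193 genes were higher.

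The median of the members was below 0 in each pool, while the presort arrays differed among themselves by about as much. It was -0.12 in pool 1, -0.25 in pool 2 and -0.31 in pool 3. The 6 array medians of the members were 9.46, 9.69 and 9.56 in presort replicates 1, 2 and 3 and 9.25, 9.50 and 9.28 in sorted replicates 1, 2 and 3. Sorted replicate 2 was thus above presort replicate 1, although each sorted array was below the presort array of its number. Presort replicate 1 was the lowest presort array for 62 of the 76 members (81.6%, against 44.7% of all genes) and presort replicate 2 the highest for 61 (80.3%, against 39.4%). With the pool as a block, 23 members fell (30.3%, against 19.5% of all genes) and 4 rose, as did 2860 of the 18193 genes. The count of calls changed when pools or arrays were left out. It was 4 falls without pool 3, 10 without pool 2, 22 without pool 1, 9 without presort replicate 2 and 10 without presort replicate 3. In this order 13.0%, 13.6%, 17.7%, 14.9% and 14.9% of all genes fell. A lost call did not always go with a smaller difference. Without pool 3 Mrpl2 stood at -0.95 ± 0.33 (SE, log2) against -0.83 ± 0.24 on all arrays, whereas Mrps15 stood at -0.54 ± 0.17 against -0.81 ± 0.17. Without sorted replicate 1, whose 3' to 5' difference was highest, 16 members fell (21.1%, against 17.9% of all genes) and 5 rose, as did 2608 of the 18193 genes. With the beta-actin 3' minus 5' difference of each array as a covariate 7 fell and 4 rose, and the median was -0.13. That is 9.21% of the members lower, under the 15.0% of all genes in that fit, whereas in the fit without the covariate the members' share was above that of all genes. The covariate itself was higher in every sorted array (1.43 to 3.17) than in every presort array (0.81 to 1.11). The fit with it therefore cannot separate RNA quality from the sort, and the cause of its lost calls was not tested.

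The differences of single members were similar from pool to pool. Across the 76 members, which are not independent replicates and share their arrays, the differences of pools 1 and 2 correlated at Pearson r = 0.71 (Spearman 0.70), those of pools 1 and 3 at 0.80 (0.79) and those of pools 2 and 3 at 0.71 (0.69). In all 3 pools 38 members were lower and 11 higher in the sorted sample. The sorted values lay below all presort values for 23 members (30.3%) and above them for 5 (6.58%), where 23.6% and 20.9% of all genes did so. Every member had a mean above the median gene, between 7.21 and 11.66 on the log2 scale, and none was lost to the filter on dim genes.

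**Figure D1:**
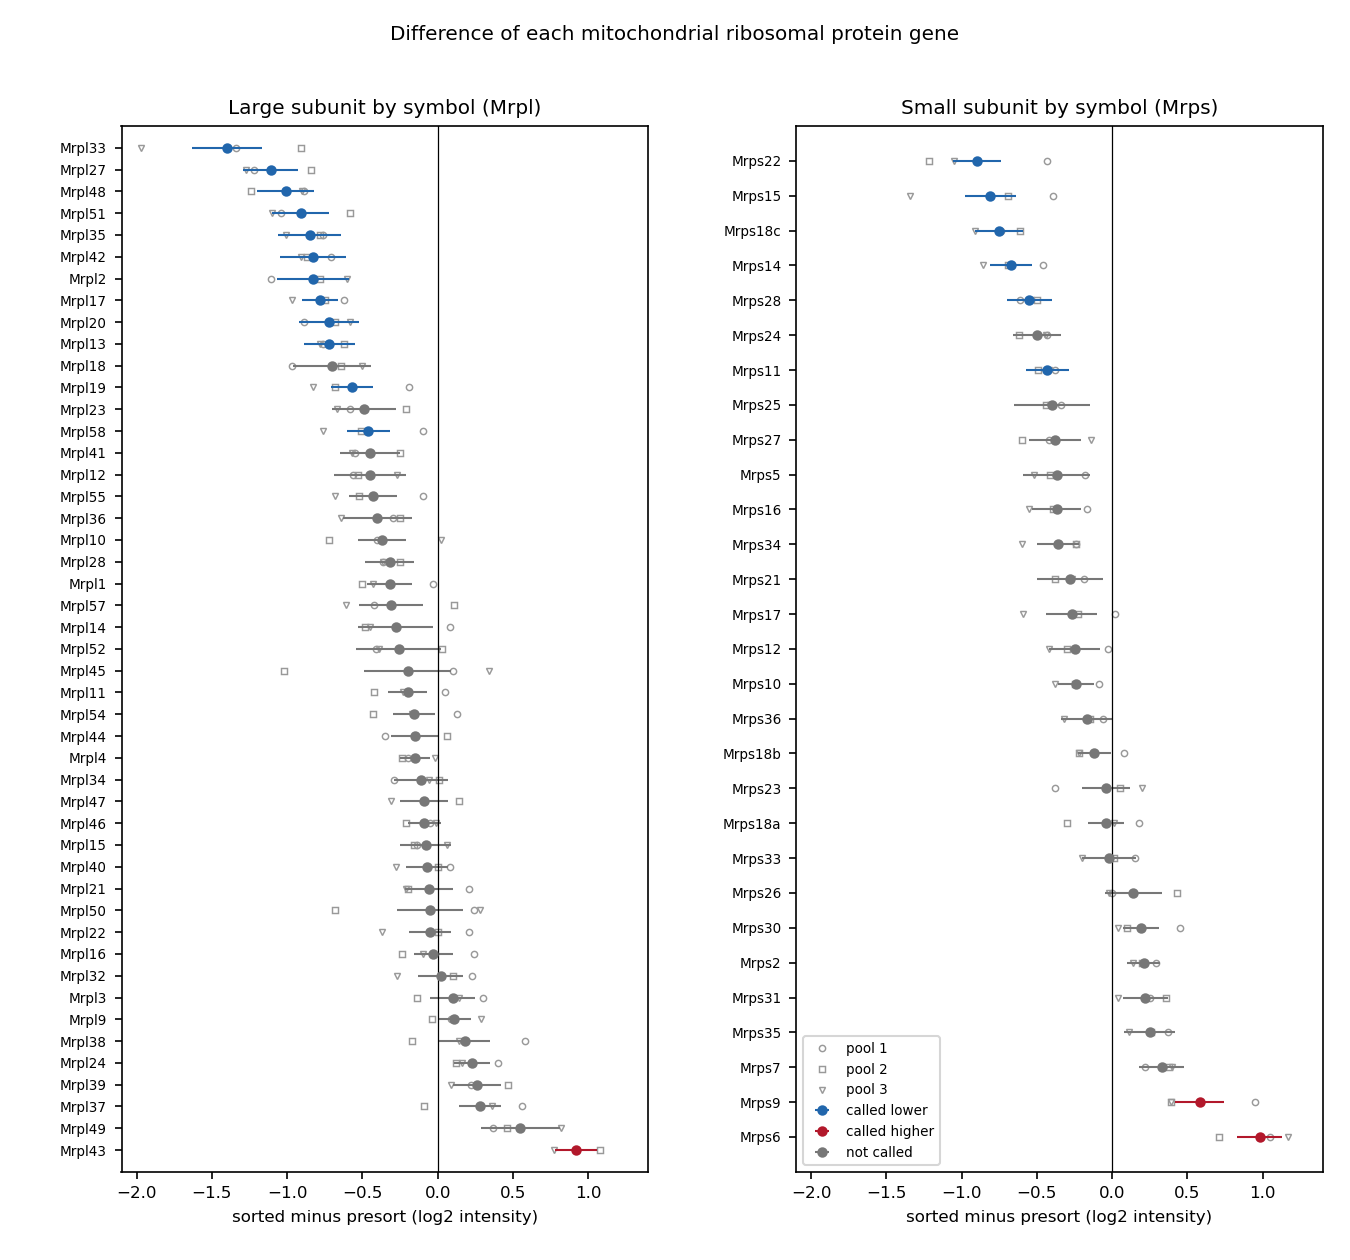
Each row is 1 member, with large subunit genes on the left and small subunit genes on the right. Filled points and bars give the sorted minus presort difference (log2) and its standard error from limma, coloured by the call, and open marks give each pool. The members run from -1.40 for Mrpl33 to 0.98 for Mrps6, most lie left of 0, and 3 stand apart on the right.

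Large and small subunit genes had nearly the same median. Of the large subunit 12 of 47 members fell and 1 rose (25.5% and 2.13%), with a median of -0.26, and of the small subunit 6 of 29 fell and 2 rose (20.7% and 6.90%), with a median of -0.25. By pool the medians were -0.14, -0.25 and -0.31 for the large and -0.09, -0.25 and -0.32 for the small subunit. The means differed more than the medians: the mean of the large members minus that of the small members fell from 0.38, 0.38 and 0.33 in presort replicates 1, 2 and 3 to 0.22, 0.26 and 0.26 in the sorted ones. The change was -0.17, -0.12 and -0.07 by pool, -0.12 ± 0.05 (SD, n = 3 pools). Its level carries no meaning, since different probe sets are compared. Its change says that the members with a large subunit symbol were lower by a little more on average in each pool. This mean goes by symbol, so Mrps18a, Mrps30 and Mrps36, whose symbol and place differ, count as small. The difference of the 2 subunits was not tested, since a summary over chosen members gets no p here.

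**Figure D2:**
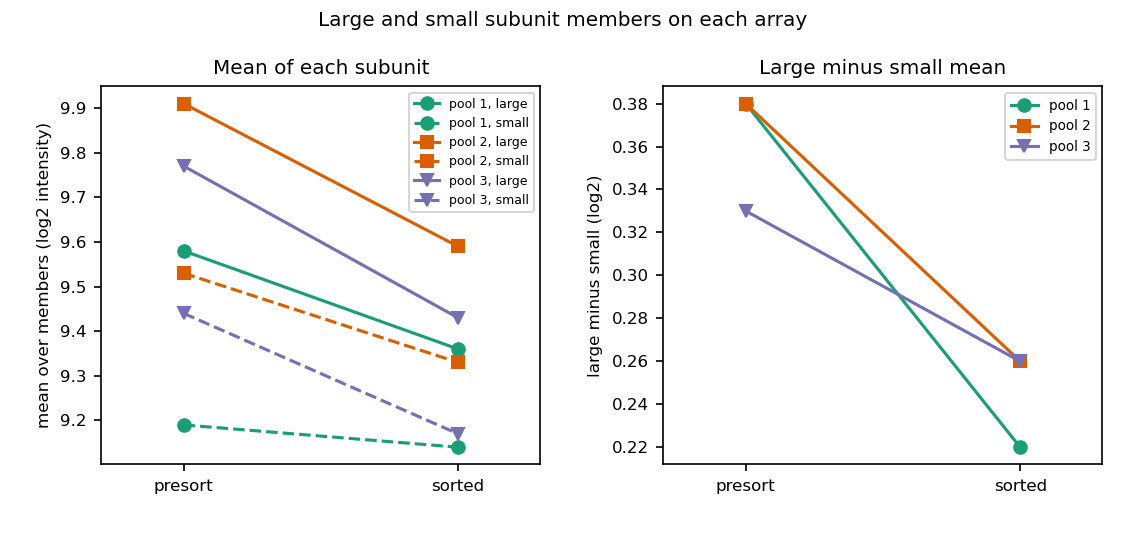
The left panel plots the mean log2 intensity of the large (solid lines) and small subunit members (dashed lines) on each array, joined within a pool, and the right panel plots large minus small. All 6 lines on the left go down, and on the right the 3 pools go from 0.33 to 0.38 in presort to 0.22 to 0.26 in sorted samples.

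The largest falls were in the large subunit. Mrpl33, the counterpart of a small bacterial protein of the large subunit, read 9.70, 9.96 and 10.26 in presort replicates 1, 2 and 3 and 8.36, 9.05 and 8.29 in the sorted ones. Every sorted value was below every presort value, and sorted replicate 2 was the highest of its group. The difference was -1.40 ± 0.23 (SE, log2; 2.65-fold lower; limma adjusted p = 0.00215). Mrpl27, whose bacterial counterpart reaches the peptidyl transferase centre where amino acids are joined, read 10.37, 10.65 and 10.61 in presort and 9.15, 9.81 and 9.34 in sorted samples. The groups lay apart and the fall was 2.16-fold (-1.11 ± 0.18, adjusted p = 0.00210). Mrpl48, a mitochondria-specific protein of the central protuberance, read 9.43, 10.08 and 9.86 in presort and 8.54, 8.84 and 8.97 in sorted samples (-1.01 ± 0.19, 0.00439). These were the 3 members with called differences of at least 2-fold, and no small subunit member reached it. The call of Mrpl48 was lost with the beta-actin covariate (-0.74 ± 0.23, adjusted p = 0.0512).

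A further 5 large subunit genes named by rule fell by less. Mrpl17, which lies near the exit of the nascent chain, read 9.04, 9.18 and 9.17 in presort and 8.42, 8.43 and 8.20 in sorted samples, with the lowest adjusted p of the fallen members (-0.78 ± 0.12, limma adjusted p = 0.00129). Mrpl51, mitochondria-specific, stood at -0.91, Mrpl35, a bacterial-type protein, at -0.85, Mrpl42, mitochondria-specific, at -0.83, and Mrpl2, a core protein beside the peptidyl transferase centre, at -0.83. The calls of Mrpl51, Mrpl35, Mrpl42 and Mrpl2 were lost without pool 3 (adjusted p of 0.105, 0.150, 0.138 and 0.111), and those of Mrpl35, Mrpl42 and Mrpl2 without presort replicate 2 (0.0653, 0.0817 and 0.114) or presort replicate 3 (0.0558, 0.0823 and 0.0884). Mrpl42 and Mrpl2 also missed without pool 2 (both 0.0840), Mrpl35 without sorted replicate 3 (0.0606) and Mrpl42 without sorted replicate 1 (0.0506). With the beta-actin covariate these 4 missed as well, with Mrpl2 at -0.30. The other 4 large subunit genes that fell, Mrpl13, Mrpl20, Mrpl19 and Mrpl58, lay between -0.72 and -0.46 and are named outside the rule. Mrpl13, Mrpl20, Mrpl19 and Mrpl58 missed when pool 3 was left out (limma, with adjusted p at 0.126, 0.121, 0.173 and 0.318) or presort replicate 2 (0.0579, 0.100, 0.0663 and 0.132). Mrpl20, Mrpl19 and Mrpl58 also missed without presort replicate 3 (0.0815, 0.0682 and 0.143) or pool 2 (0.0731, 0.135 and 0.212), Mrpl19 and Mrpl58 without sorted replicate 3 (0.0517 and 0.116) and Mrpl58 without sorted replicate 2 (0.0805). Mrpl58, the release factor of the large subunit that frees stalled chains, missed with the pool as a block too (-0.46 ± 0.15, 0.0599).

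The small subunit genes that fell were Mrps22, Mrps15, Mrps18c, Mrps14, Mrps28 and Mrps11. Mrps22, a mitochondria-specific protein needed to assemble the small subunit, read 9.36, 9.89 and 9.69 in presort and 8.93, 8.67 and 8.64 in sorted samples. The groups did not overlap, and the difference was smallest in pool 1 (-0.90 ± 0.16, limma adjusted p = 0.00325). Mrps15, a bacterial-type protein that binds the small ribosomal RNA, read 9.95, 10.19 and 10.46 in presort and 9.56, 9.50 and 9.13 in sorted samples (-0.81 ± 0.17, 0.00844). Mrps14, a bacterial-type protein of the head of the small subunit, stood at -0.67, Mrps28 at -0.55 and Mrps11, on the platform of the small subunit, at -0.43. Without pool 3 none of the 6 passed (6 of the 29 small members were lower at an unadjusted p under 0.05), with adjusted p of 0.0607 for Mrps22, 0.0792 for Mrps15, 0.111 for Mrps18c, 0.109 for Mrps14, 0.150 for Mrps28 and 0.212 for Mrps11. Mrps15, Mrps28 and Mrps11 also missed without pool 2 (0.0551, 0.0735 and 0.110), and Mrps28 without presort replicate 2 or 3 (0.0939 and 0.0831). With the beta-actin covariate Mrps18c (0.0889), Mrps14 (0.0562), Mrps28 (0.218) and Mrps11 (0.243) missed. Mrps11 missed without any 1 of the arrays other than sorted replicate 2, with adjusted p from 0.0509 to 0.167, and without pool 1 (0.0822).

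3 members rose. Mrpl43, a mitochondria-specific protein of the large subunit, read 9.70, 9.57 and 9.49 in presort and 10.62, 10.65 and 10.26 in sorted samples. All sorted values were above all presort values by more than the spread within either group (0.92 ± 0.14, SE, log2; 1.89-fold; limma adjusted p = 0.00141). Mrps6, the counterpart of a bacterial protein on the platform of the small subunit, read 8.28, 8.77 and 8.44 in presort and 9.33, 9.47 and 9.61 in sorted samples (0.98 ± 0.15, 1.97-fold, 0.00161). Mrps9, whose bacterial counterpart touches the transfer RNA in the peptidyl site, read 9.81, 9.97 and 9.80 in presort and 10.76, 10.35 and 10.19 in sorted samples (0.58 ± 0.16, 0.0261). The call of Mrps9 was lost without pool 1, 2 or 3 (adjusted p of 0.0775, 0.0855 and 0.0712), without presort replicate 1, 2 or 3 (0.0763, 0.0542 and 0.0917), and with the beta-actin covariate, where the rise was 0.26. Of the 21 called members 5 were called under each of the 17 alternatives of the fit: the falls of Mrpl33, Mrpl27 and Mrpl17 and the rises of Mrpl43 and Mrps6.

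**Figure D3:**
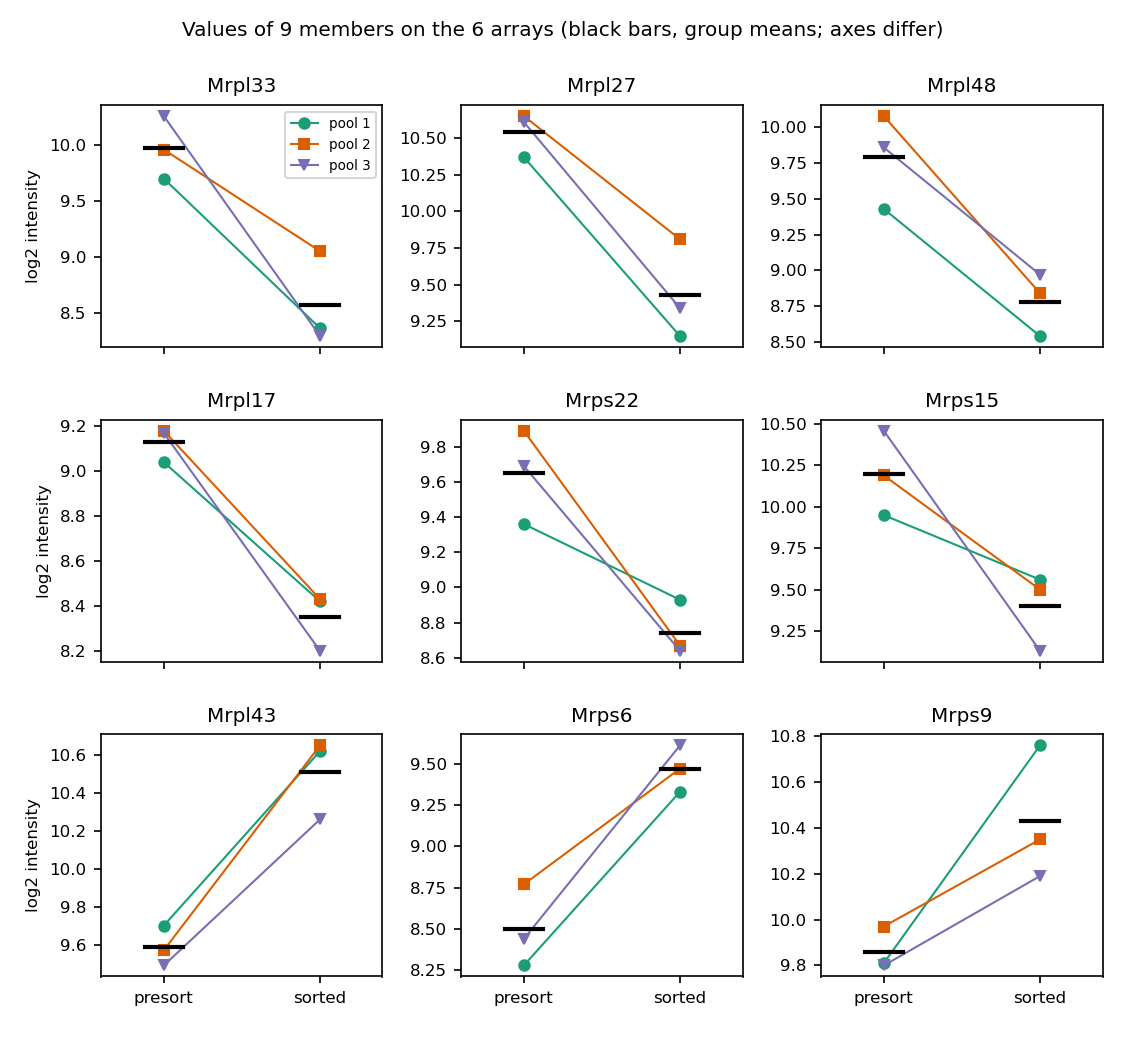
Log2 intensity of 9 members on the 6 arrays, with presort on the left and sorted on the right of each panel, lines joining the arrays of a pool and black bars for group means. In the panels of Mrpl33, Mrpl27, Mrpl48, Mrpl17, Mrps22 and Mrps15 each line goes down, and in those of Mrpl43, Mrps6 and Mrps9 each goes up.

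The start regions of 3 members are printed to show the gene with the largest fall beside risen ones, with and without a match to a motif counted over all members. The windows run from 250 bases before to 50 after the annotated start (RefSeq, GRCm38.p6, written 5' to 3' on the gene's strand), and capitals mark CCGGAAG, the core that ETS factors such as GABP bind. Mrpl33 (chr5:31613701-31614000, plus strand) is the member with the largest fall, Mrps6 (chr16:92058086-92058385, plus strand) the one with the largest rise, and Mrpl43 (chr19:45006393-45006692, minus strand), added after its values were seen, the risen gene of the large subunit.
Mrpl33: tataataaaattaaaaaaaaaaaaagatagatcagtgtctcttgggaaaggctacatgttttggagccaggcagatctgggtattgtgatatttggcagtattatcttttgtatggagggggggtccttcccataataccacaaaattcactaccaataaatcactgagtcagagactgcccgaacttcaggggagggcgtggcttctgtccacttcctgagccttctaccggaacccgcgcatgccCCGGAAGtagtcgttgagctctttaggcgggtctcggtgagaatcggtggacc
Mrpl43: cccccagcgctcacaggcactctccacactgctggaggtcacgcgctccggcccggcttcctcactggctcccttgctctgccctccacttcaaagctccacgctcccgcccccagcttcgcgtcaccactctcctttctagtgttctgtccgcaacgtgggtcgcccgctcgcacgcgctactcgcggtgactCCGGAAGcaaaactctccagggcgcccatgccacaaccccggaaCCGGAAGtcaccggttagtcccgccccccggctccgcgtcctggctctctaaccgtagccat
Mrps6: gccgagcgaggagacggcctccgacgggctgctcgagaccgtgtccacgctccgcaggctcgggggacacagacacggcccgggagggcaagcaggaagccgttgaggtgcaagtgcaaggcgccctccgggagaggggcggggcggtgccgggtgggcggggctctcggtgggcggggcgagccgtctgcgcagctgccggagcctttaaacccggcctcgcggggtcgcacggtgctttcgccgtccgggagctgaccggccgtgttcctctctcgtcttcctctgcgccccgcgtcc
The Mrpl33 window holds CCGGAAG in 1 place, across the annotated start, the Mrpl43 window in 2 places upstream of it, and the Mrps6 window holds none of the motifs searched.

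Of the 76 members, 67 had at least 1 such window in the RefSeq table, 73 windows in all. Read on both strands, CCGGAAG was in 25 of the 73 windows (34.2%, against 8.86% of all 32851 windows), AAGATGGC, the core of YY1 sites, in 12 (16.4% against 2.75%) and GCGCATGCG, the core of sites for the respiratory factor NRF1, in 7 (9.59% against 1.75%). CACGTG, the E-box that MYC and other factors bind, was in 7 windows of 5 genes (9.59% against 7.15%). Of the 15 fallen members with a window, 8 had CCGGAAG, 3 AAGATGGC, 1 GCGCATGCG and 3 CACGTG. The last 3 letters of the ETS core are the first 3 of the YY1 core, so that 1 stretch can hold both. The E-box reads the same on both strands, and the NRF1 core overlaps its own reverse complement. A match is a match of letters and shows no binding.

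Among the factors that act through such sites, as background, the messenger RNA of several differed in the sorted samples. Gabpa and Gabpb2, subunits of GABP, rose by 0.34 ± 0.10 (SE, log2, limma adjusted p = 0.0379) and 0.40 ± 0.13 (0.0457), while Gabpb1 stood at 0.34 (0.210), Nrf1 at 0.11 (0.705) and Yy1 at 0.18 (0.323). Myc read 9.58, 9.52 and 9.65 in presort and 8.34, 8.50 and 8.73 in sorted samples and fell in each pool (-1.06 ± 0.13, 0.000465). Of the coactivators of mitochondrial biogenesis, Ppargc1b fell by 0.71 and Pprc1 by 0.66, while Ppargc1a, dim at a presort mean of 4.77, rose by 0.91. Esrra, a nuclear receptor that works with them, rose by 0.37 (0.0496). In all 4 of the 10 regulators rose and 3 fell (40.0% and 30.0%, against 14.5% and 18.1% of all genes). The count of rises was 1 without presort replicate 1, 2 or 3 or sorted replicate 2, 1 without pool 2, 2 without sorted replicate 3 or pool 1, and 3 without sorted replicate 1. Without pool 3 none rose (2 at an unadjusted p under 0.05) and 2 fell, with the beta-actin covariate 1 rose, and with the pool as a block 2 rose. Pprc1 and Ppargc1a were among those that missed without pool 3 (limma adjusted p = 0.0743 and 0.0698).

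By class, of the large subunit genes with bacterial counterparts 8 of 29 fell and none rose (0 higher at an unadjusted p under 0.05; median -0.32), and of the mitochondria-specific ones 4 of 18 fell and 1 rose (median -0.15). In the small subunit 4 of 15 bacterial-type genes fell and 2 rose (median -0.28), and 1 of 9 mitochondria-specific genes fell (median -0.04). In this order 27.6%, 22.2%, 26.7% and 11.1% of the classes fell, against 18.1% of all genes. The shares that rose were 0%, 5.56%, 13.3% and 0%, against 14.5% of all genes. Differences between the classes were not tested. Single arrays moved these values. Without presort replicate 2 the falls of the classes in this order were 3, 2, 2 and 1, without presort replicate 3 they were 4, 2, 2 and 1, without pool 2 they were 5, 2, 1 and 1, and without pool 3 they were 3, 1, 0 and 0 (3 of the 15 and 2 of the 9 small members were lower at an unadjusted p under 0.05). Of all genes 14.9%, 14.9%, 13.6% and 13.0% fell in those fits. Without presort replicate 1 the medians of the small subunit classes were -0.49 and -0.18, and without sorted replicate 1 that of the mitochondria-specific one was 0.07. Centring, which moves all genes by about 0.23, put the medians of the mitochondria-specific classes at 0.07 and 0.18, and quantile normalization, which moves them by 0.06, at 0.01 and 0.08.

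The 3 Mrps18 genes descend from 1 bacterial protein and are known to occupy different places in the ribosome. Mrps18c, which takes the place of the bacterial protein in the small subunit, read 11.15, 11.51 and 11.41 in presort and 10.41, 10.90 and 10.50 in sorted samples and fell by 0.75 ± 0.16 (SE, log2, limma adjusted p = 0.00865). Its call was lost without pool 3 and with the beta-actin covariate (-0.56 ± 0.20, 0.0889). Mrps18b, elsewhere in the small subunit, stood at -0.12 ± 0.11 (0.515), and Mrps18a, which sits in the large subunit despite its symbol, at -0.04 ± 0.12 (0.869). Whether the 3 differ from each other was not tested. Mrps30, another large subunit protein with a small subunit symbol, stood at 0.19 ± 0.12 (0.291), with arrays of 9.09, 9.29 and 9.21 in presort and 9.54, 9.39 and 9.25 in sorted samples, and passed when arrays were centred on their medians (0.42, 0.0322). Mrps36, now known as a part of the 2-oxoglutarate dehydrogenase complex, stood at -0.17 ± 0.17 (0.526). With Mrps18a and Mrps30 moved to the large subunit and Mrps36 left out, the large minus small median difference was 0.07, against a value that rounds to 0 by symbol.

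Mitoribosomal proteins known by other names gave mixed values. Dap3, a small subunit protein that binds GTP, read 10.96, 11.10 and 10.88 in presort and 10.52, 10.12 and 10.26 in sorted samples and fell by 0.68 ± 0.14 (limma adjusted p = 0.00547). Gadd45gip1, which lies at the exit tunnel of the large subunit, fell by 0.64 ± 0.12 (0.00352). Dap3 missed without pool 2 or 3 (0.0684 and 0.0559), and Gadd45gip1 with the mean of probe sets (-0.32, 0.0509). Chchd1 stood at -0.04 (0.913) and Ptcd3 at 0.48 (0.0891), with pool differences of 0.96, 0.45 and 0.04.

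The 55 members that did not pass lay between -0.70 for Mrpl18 and 0.55 for Mrpl49, 41 below and 14 above 0. Fitted with the pool as a block, 7 of them passed: Mrpl18, Mrpl12, which forms the stalk that recruits translation factors, Mrpl23, Mrpl41, Mrps24 and Mrps25 as falls and Mrpl49 as a rise, and of the 21 called members 20 kept their call. Mrpl18 had an adjusted p of 0.0773 without and 0.00638 with the block. Its 3 pool differences were all negative, and presort replicate 1 was the lowest of the presort arrays at 10.44, against 10.86 and 10.95. Mrpl45, which anchors the ribosome to the inner membrane, had the widest spread over pools, at 0.10, -1.02 and 0.34.

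Some members could be read in more than 1 way. 42 members had more than 1 probe set, 122 in all, of which the one with the highest mean stood for the gene. Of all 156 member probe sets 26 were called lower and 10 higher, 23.1% against 28.8% of all probe sets with 1 symbol. In 21 members the probe sets differed in sign, and in none were they called in both directions. Mrpl33 and Mrpl27 were lower at both of their probe sets (Mrpl33 at -1.40 and -0.61, Mrpl27 at -1.11 and -0.46), Mrpl48 at the brighter 2 of 3 (-1.01 and -1.03), Mrps6 was higher at both (0.98 and 0.58) and Mrps9 at all 4, from 0.49 to 1.35. By contrast the dimmer probe sets of Mrps14 stood at 0.05 and 0.34 and that of Mrpl42 at 0.12. The probe sets of Mrpl13 ran from -0.72 to 0.61, and the dimmer ones of Mrpl17 stood at -0.19 and -0.08, not called. Mrpl50 stood at -0.05 at the probe set used and was called lower at the other (-1.13, limma adjusted p = 0.0414). Mrpl11 (-0.57), Mrpl28 (-0.52) and Mrpl44 (-0.69), not called at the probe set used, were likewise lower at another. Mrpl9 (0.38), Mrps23 (0.35) and Mrps26 (0.62) were in the same way called higher at another. With the mean of all probe sets of a gene, 13 members fell and 3 rose, and Mrpl51, Mrpl35, Mrpl42, Mrps14, Mrpl13 and Mrpl58 lost their calls.

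In the GRCm38.p6 annotation 19 members overlap another protein-coding gene, so part of their signal may not be told apart from a neighbour's where transcripts are shared. Of 20 such neighbours with a value 8 were called, 5 of them beside a called member, where 32.6% of all genes were called. Mrps6 overlaps Slc5a3, the inositol transporter gene, whose own probe set read 7.34, 8.31 and 7.74 in presort and 10.51, 9.42 and 9.57 in sorted samples (2.03 ± 0.33, SE, log2, limma adjusted p = 0.00205). Mrpl27 overlaps Eme1, a DNA repair nuclease gene, at -1.76 (0.000302), Mrpl48 overlaps Rab6a at -0.47 (0.0151) and Mrpl43 overlaps Twnk, the helicase of mitochondrial DNA, at 0.53 (0.0284). Opposite to its member, Klc4, which Mrpl2 overlaps, rose by 0.37 (0.0272). The calls of Twnk, Klc4 and Rab6a were lost without pool 3 (0.161, 0.193 and 0.0665) and without presort replicate 2 (0.0621, 0.0922 and 0.0609) or 3 (0.0719, 0.0842 and 0.0517), and those of Twnk and Klc4 also without presort replicate 1 (0.0935 and 0.0736), sorted replicate 1 (0.0616 and 0.0553), sorted replicate 3 (0.0749 and 0.0757) or pool 1 (0.132 and 0.0948). Klc4 and Rab6a missed without pool 2 (0.0949 and 0.136). The other 3 called neighbours, beside members that were not called, were Rrnad1 (0.77) of Mrpl24, Syvn1 (1.87) of Mrpl49 and Ska3 (-1.91) of Mrpl57. Rrnad1 missed without presort replicate 1, 2 or 3 (0.0577, 0.0711 and 0.0552), sorted replicate 2 or 3 (0.0640 and 0.0673) or pool 2 or 3 (0.163 and 0.145). These neighbours were looked up after the values of the members were seen.

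The other genes of mitochondrial translation moved in both directions. Of 28 assembly genes 6 rose and 7 fell, with a median of 0.01 that ranged from -0.14 to 0.24 over the alternatives. Dhx30, an RNA helicase of mitochondrial RNA granules, rose from 9.44, 9.48 and 9.50 to 11.33, 11.16 and 11.09 (1.72 ± 0.11, SE, log2, limma adjusted p = 2.66e-05). Tfb1m, which methylates the small ribosomal RNA, fell from 9.21, 9.57 and 9.61 to 8.21, 8.48 and 8.28 (-1.14 ± 0.15, 0.000579). Rbfa, a maturation factor of the small subunit, fell by 1.05 and Mettl15, another methyltransferase of that RNA, by 1.03, though the probe set that stands for Mettl15 without _x_at and _s_at probe sets read -0.13 (0.527). The assembly genes that rose were 4 without pool 2 and 3 without pool 3, and those that fell were 4 without pool 2. Of all 18193 genes 1871 rose without pool 2 and 1544 without pool 3, and 13.6% fell without pool 2. Of 14 translation factors 4 rose and 2 fell (28.6% and 14.3%, median 0.09, from -0.07 to 0.32). The initiation factor gene Mtif3 rose by 0.75, Mtfmt, which formylates the initiator transfer RNA, by 0.74 and the release factor gene Mtrf1l by 0.69, while Mrrf, the recycling factor, fell by 0.61. Mrrf missed without presort replicate 2 or 3, sorted replicate 3 or pool 3 (limma adjusted p = 0.0696, 0.0576, 0.0590 and 0.142), and Mtif3 without presort replicate 3 or pool 3 (0.0539 and 0.127). Of 19 genes that charge mitochondrial transfer RNA 2 rose and 1 fell (10.5% and 5.26%, median 0.08, from -0.07 to 0.31). They were Qrsl1 at 1.35 and Gatc at -0.53, subunits of the amidotransferase that makes glutaminyl transfer RNA, and Hars2, the histidyl synthetase, at 0.92. Gatc missed without pool 2 or 3 (limma adjusted p = 0.0821 and 0.0598) and with the beta-actin covariate (0.0709).

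Of 21 measured genes that maintain and express mitochondrial DNA 10 rose and 1 fell (47.6% and 4.76%, against 14.5% and 18.1% of all genes), with a median of 0.40 that ranged from 0.26 to 0.63 over the alternatives. Mterf2, of the transcription termination factor family, rose from 8.16, 7.79 and 7.54 to 10.26, 10.17 and 10.15 (2.36 ± 0.16, SE, log2, limma adjusted p = 3.20e-05). Tfb2m, the initiation factor of mitochondrial transcription, rose by 0.94 and Mtpap, the poly(A) polymerase, by 0.91. Slirp, an RNA-binding protein that stabilizes mitochondrial messenger RNA, was the fall of the list, by 1.01, and it missed without sorted replicate 1 or 3, presort replicate 2 or 3 or pool 3 (limma adjusted p = 0.0509, 0.0639, 0.0742, 0.0743 and 0.184) and with the beta-actin covariate (0.176). Without pool 3 the count of rises was 4, without presort replicate 3 it was 6, and with the beta-actin covariate 5. In those fits 1544, 1918 and 2096 of the 18193 genes rose. The only measured transcript of mitochondrial DNA, ND5, stood at 0.13 ± 0.14 (0.549).

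Complex I, whose membrane subunits come in part from mitochondrial translation, and the cytosolic ribosome were set beside the members. The 44 Nduf genes, most of which encode subunits and assembly factors of complex I, are called complex I genes here by symbol alone. Of them 19 fell and 1 rose (43.2% and 2.27%, against 18.1% and 14.5% of all genes). Their median was -0.46, with pool medians of -0.38, -0.43 and -0.54. Of 42 cytosolic ribosomal protein genes 1 fell and 4 rose (2.38% and 9.52%), with a median of -0.03. The median of the complex I genes ranged from -0.55 to -0.23 over the alternatives, that of the members from -0.32 to -0.03 and that of the cytosolic genes from -0.04 to 0.20. By size of the called differences Ndufb1 (1.10), Ndufv3 and Ndufb9 (both -0.99) and Ndufaf2 (-0.90) led the complex I genes. Rpl12 (1.65), Rps25 (1.23), Rps27 (1.02) and Rpl14 (-0.80) led the cytosolic ones. The probe sets of these 4 were dim for their family, with presort means of 8.52, 9.93, 6.16 and 9.08 beside 14.47 for Rps29. Rpl14 missed without pool 2 or 3 (limma adjusted p = 0.0851 and 0.0881). Ndufb1 missed without presort replicate 1 or 3, sorted replicate 2 or pool 3 (limma adjusted p = 0.0601, 0.0584, 0.0530 and 0.111), and Ndufaf2 without presort replicate 2 or 3 or pool 2 or 3 (0.0560, 0.0516, 0.0745 and 0.0966). Ndufv3 missed without pool 3 (0.111), and Ndufv3 and Ndufaf2 missed with the beta-actin covariate (0.0965 and 0.158). Of the 44 complex I genes 3 fell without pool 3, 8 without presort replicate 2 and 9 without presort replicate 3, against 13.0%, 14.9% and 14.9% of all genes. There were 11 falls without sorted replicate 3 or pool 2 (17.2% and 13.6% of all genes). With median centring 9 fell and with the beta-actin covariate 6 (14.2% and 15.0% of all genes). Differences between these families were not tested. The erythroid, monocyte and macrophage, neutrophil, cell division and T and NK cell markers had list medians of -3.04, -2.93, -2.69, -2.60 and -0.87, below 0 as the members' median was, and the B cell markers 2.33. Their part in the members' values was not tested.

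**Figure D4:**
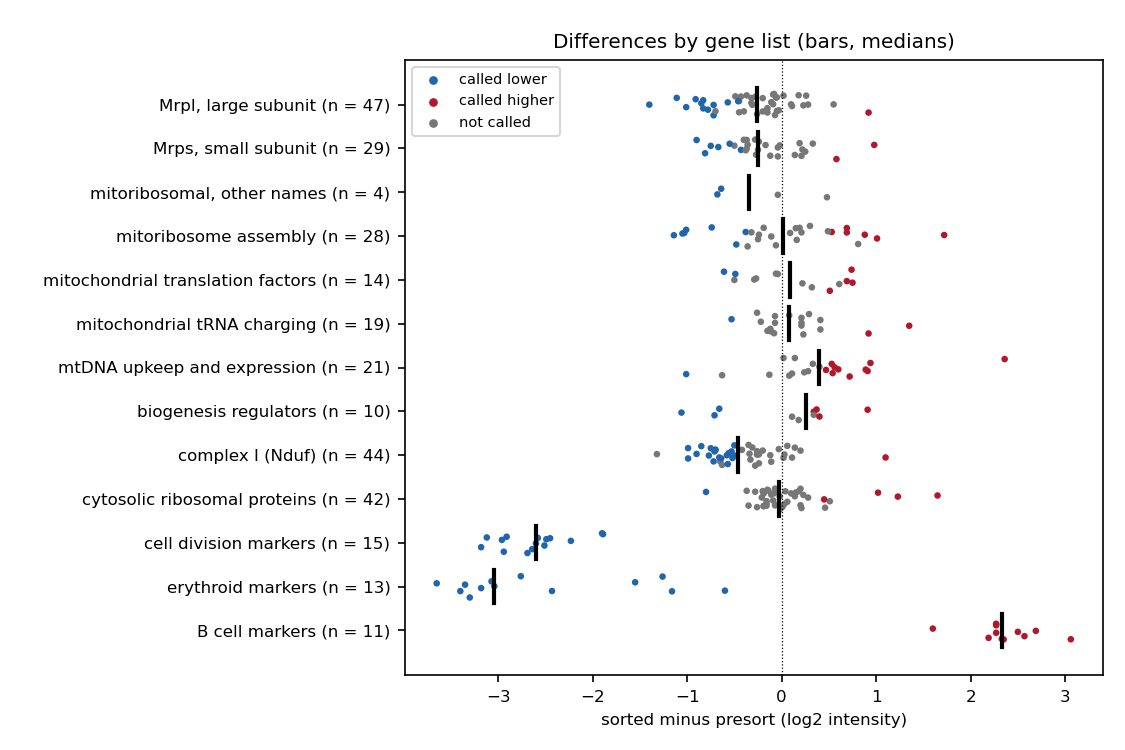
Each point is 1 gene, placed by its sorted minus presort difference (log2) and coloured by its call, and black bars are list medians. The members of both subunits lie around medians of -0.26 and -0.25, between the complex I genes at -0.46 and the cytosolic ribosomal protein genes at -0.03, while marker lists of marrow cell types lie further out.

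**Figure D5:**
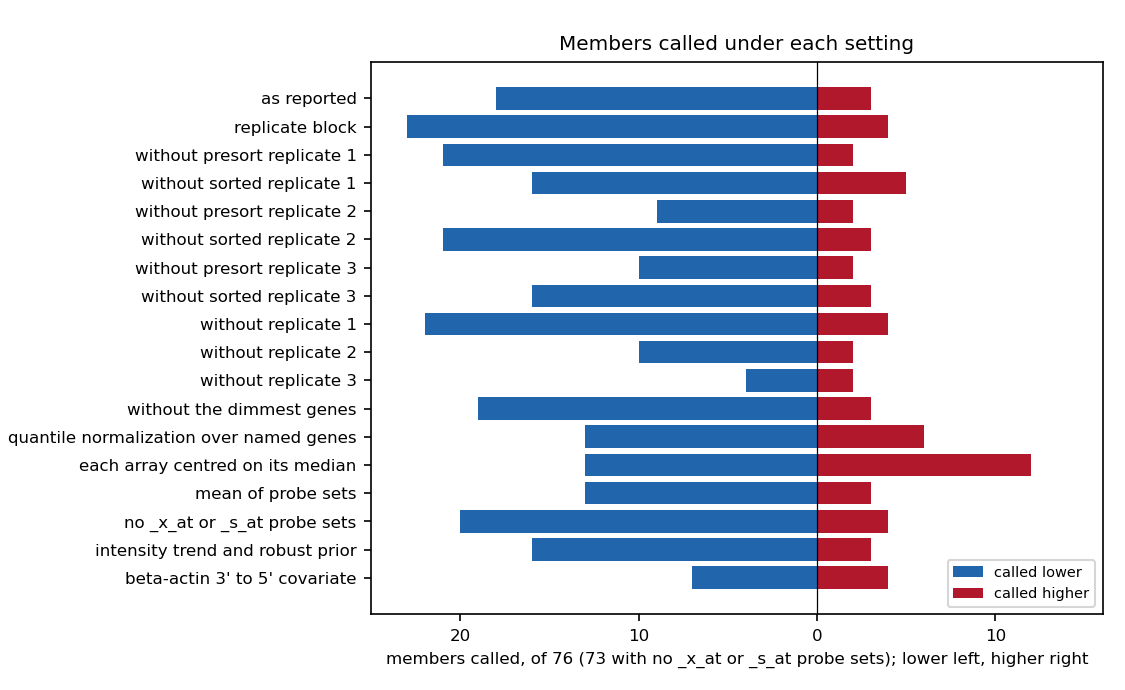
Bars give how many members were called lower (left) and higher (right) in the fit as reported and in 17 alternatives. The count of falls runs from 4 without replicate 3, the arrays of pool 3, to 23 with the replicate block, and the count of rises reaches 12 when each array is centred on its median.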

How the data were processed

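Affymetrix 3' arrays of 6 samples were analysed. The deposited values are linear intensities, which range from 9.71 to 38492.08 over the 6 arrays together. The submitters' processing notes name RMA as the authors' tool, with a version not given in the sources used here. RMA brings the probe intensities of all arrays to 1 distribution, so a change in total RNA per cell leaves no trace. Log2 was taken with no pseudocount. Of 45101 probe sets 34945 carried 1 symbol, and each gene was read by its brightest one (mean over 6 arrays). Of the member probe sets all 156 matched the reference gene table by Entrez number, and 4 others that carry a member's symbol with a second symbol were not used.

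The test of sorted against presort was limma's moderated test (limma 3.58.1, R 4.3.3: eBayes after lmFit, with 4 residual degrees of freedom, two-sided), adjusted by Benjamini-Hochberg over 18193 genes at 0.05. No genes were filtered. The steps were tested on simulated data. Members and lists were chosen with earlier results of these data known. By rule the text names up to 8 called falls and 6 called rises per subunit, Mrps18a to c, Mrps30, Mrps36, each regulator and mitoribosomal protein under another name, up to 4 called genes of other lists and 2 per marker list; 2 promoters were set by that rule. Each pool was in part kept unsorted and in part sorted, per the labels' design text; that a replicate number marks 1 pool is taken from this and is not in the titles. Deviations of same-numbered samples from group means correlated at 0.39, 0.20 and -0.03 over genes, so the third pair shows no pairing. Alternatives were the pool as a block, leaving out arrays or pools, the dimmest 33.3% of genes, other scalings, other probe set rules, another prior, a beta-actin covariate and subunits by place. Figures used matplotlib 3.10.9. The number of arrays limits the precision.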

Additional observations from a re-analysis of the deposited data

How the results depend on the processing

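With the replicate block the large subunit had 2 rises against 1, both classes of mitochondria-specific genes had 1 more call (2 rises in the large and 2 falls in the small subunit), the genes of mitochondrial DNA expression 2 falls against 1 and the regulators 2 rises against 4. Of the called members it ended the call of Mrpl58. Leaving out 1 array or both arrays of a pool gave 4 to 22 falls and 2 to 5 rises over all members, 4 to 15 falls and 1 to 2 rises in the large and 0 to 8 falls and 1 to 3 rises in the small subunit, with medians from -0.32 to -0.14, from -0.31 to -0.14 and from -0.32 to -0.17, and a large minus small median difference from -0.05 to 0.03. The 0 falls of the small subunit came without pool 3. Quantile normalization over the named genes gave 6 rises (2 large, 4 small) and medians of -0.10, -0.10 and -0.11 for all, large and small. Centring each array on its median gave 12 rises (6 and 6) and medians of -0.03 for each. Over all genes centring moved the share of rises among calls from 44.4% to 66.7%. The mean of probe sets gave medians of -0.15 for all and -0.12 for the small subunit and a large minus small difference of -0.08. Without _x_at and _s_at probe sets the large subunit had 2 rises and the difference was -0.05. The beta-actin covariate gave 7 falls (5 large, 2 small), 2 rises in the large subunit, medians of -0.13, -0.16 and -0.09 and a difference of -0.07. Counting subunits by place gave a difference of 0.07. Calls were lost most often without pool 3 (15 of 21), with the covariate (12) and without presort replicate 2 (10). The covariate ended the calls of Mrpl2, Mrpl13, Mrpl20, Mrpl35, Mrpl42, Mrpl48, Mrpl51, Mrps9, Mrps11, Mrps14, Mrps18c and Mrps28, and quantile normalization and centring each those of Mrpl19, Mrpl20, Mrpl58, Mrps11 and Mrps28. The cause of these changes was not tested. All members lay above the median gene in mean signal; the part of signal in the calls was not tested.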
